A study of Mus musculus with 16 samples.

Results

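The genes described are 7 subunits of the GABA-A receptor, namely Gabra2, Gabra3, Gabra4, Gabra5, Gabra6, Gabrb2 and Gabrd. They were chosen by name, and every assembled transcript whose largest same-strand exonic overlap with GENCODE M21 fell on one of these genes was assigned to it. This gave 36 transcripts of 137561 in the assembly, and 7 genes of 40400 GENCODE genes with an assembled transcript. All 7 genes had fragments in both capture designs.

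GABA-A receptors are chloride channels built of several subunits around a central pore and opened by GABA, the main inhibitory transmitter of the adult brain. Most contain alpha, beta and gamma subunits, and a delta subunit can stand in for gamma. The choice of alpha subunit sets where the receptor sits and how it responds to benzodiazepines. Receptors with alpha6 are a hallmark of cerebellar granule cells, receptors with alpha5 or delta lie largely outside synapses, and delta pairs with alpha4 in the forebrain and with alpha6 in the cerebellum.

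RNA capture sequencing (CaptureSeq, in which cDNA libraries are hybridized to probes before sequencing) was run on tissues of adult C57BL/6J mice with 2 probe designs. The lncRNA design targeted long noncoding RNA loci. The splice junction design targeted sequence next to RefSeq splice sites, after those most abundant in brain RNA had been taken out. For each design there were 4 brain libraries, of whole brain, olfactory bulb, cortex and cerebellum, and 4 nonbrain libraries, of liver, kidney, heart and a tissue labelled testis. The 16 libraries are 1 per tissue and design.

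The number of mice is not given in the sources used here, nonbrain RNA was pooled from pieces of an organ of one mouse, and the 3 dissected brain tissues are parts of the whole brain, so the 4 brain libraries of a design are not replicates of one condition and p-values measure the spread between tissues. Brain RNA was extracted with TRIzol and nonbrain RNA with RNeasy kits, and the probes were hybridized with one pool of brain and another of nonbrain libraries, so tissue group and these steps cannot be told apart. In bulk tissue, fewer cells of a type and less RNA per cell cannot be told apart either.

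Libraries held 8930235 to 43889288 fragments, of which 6463678 to 37313718 lay outside the ERCC spike-in RNAs. Levels are given as CPM, fragments per 1000000 fragments outside ERCC. Neuronal marker genes summed to at least 426 CPM in every brain library and at most 1.74 in any nonbrain library. In the libraries labelled testis the markers did not match the label. In the splice junction design 8 germ cell markers summed to 2.92 CPM there against 67.4 in whole brain, Tnp1 was at 0 and Prm1 at 0.0379, whereas 8 keratinocyte markers summed to 7746 CPM. Calls of the members and of Gabrp between brain and nonbrain were therefore also made without them.

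The brain tissues differed most in Gabra6. In the splice junction design its level was 605 CPM in whole brain, 5915 in cerebellum, 22.2 in cortex and 31.3 in olfactory bulb. It was 0 in heart, kidney, liver and the tissue labelled testis. The cerebellum held 162363 fragments, 9.78 times the CPM level of whole brain and 266 times that of cortex. The levels in the lncRNA design were 3.93 in whole brain, 32.5 in cerebellum, 0.0587 in cortex and 0.0565 in olfactory bulb, the last 2 resting on 1 fragment each. The 4 nonbrain libraries of this design also held none. A count of 0 allows up to 3 fragments, which is 0.464 CPM at most in a lncRNA-design library and 0.234 in a splice junction library, so the cerebellum was at least 70.0-fold and at least 25311-fold higher. These intervals and floors cover counting error only.

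The cortex and olfactory bulb levels of Gabra6 moved with those of other cerebellar genes. As a share of the cerebellar level in the splice junction design, Gabra6 stood at 0.376% in cortex and 0.530% in olfactory bulb. Cbln3, a granule cell gene, stood at 0.497% and 0.621%, and Pcp2, a Purkinje cell gene, at 0.631% and 0.854%. Car8, another Purkinje cell gene, stood at 1.26% and 1.07%. In whole brain the 4 genes stood at 10.2%, 12.2%, 19.3% and 15.4%. The part of cerebellar tissue or of fragments shared within the brain pool in these low values was not tested. Gabrd stood at 45.6% of its cerebellar level in cortex and 19.9% in olfactory bulb.

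**Figure D1:**
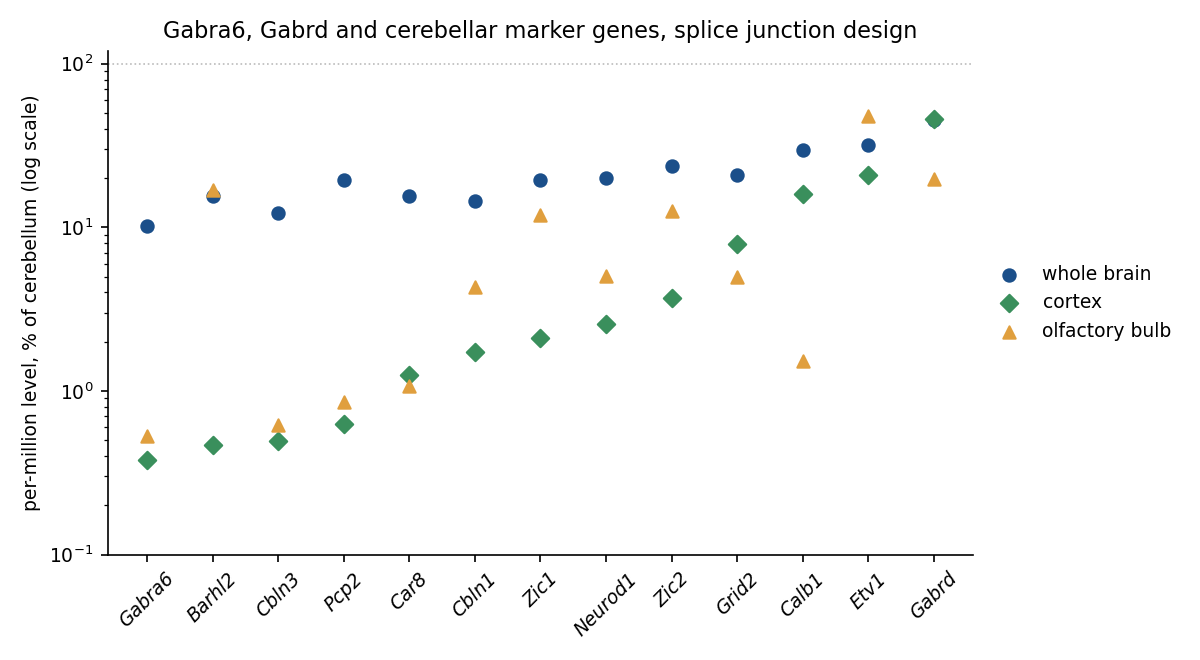
Level CPM of Gabra6, Gabrd and 11 cerebellar marker genes in whole brain, cortex and olfactory bulb as a percentage of the cerebellar level (log axis), splice junction design, 1 library per point. Gabra6 has the lowest cortex share of the 13 genes, 0.376%, next to Barhl2 and Cbln3, and Gabrd the highest, 45.6%.

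Gabra6 lies on GRCm38 chr11:42306437-42321072, minus strand, and was assembled as 3 transcripts whose intron chains are all in GENCODE M21. They differ in the start of a coding exon at chr11:42317558-42317778. The longer form holds 30 bases more at the 5′ end of that exon than the shorter form, a stretch that keeps the reading frame, at chr11:42317749-42317778. The exon is shown because both forms were measured in all brain tissues of the splice junction design, with the 30 bases in capitals.

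Gabra6 exon: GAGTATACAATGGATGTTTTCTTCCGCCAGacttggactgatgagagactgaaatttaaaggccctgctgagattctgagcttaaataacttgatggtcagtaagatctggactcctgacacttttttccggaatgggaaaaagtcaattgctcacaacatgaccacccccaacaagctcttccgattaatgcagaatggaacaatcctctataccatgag

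In the splice junction design the longer exon took 86.4% of Gabra6 fragments in cerebellum (95% Wilson interval 86.2 to 86.6%), 90.3% in whole brain (89.9 to 90.7%), 80.9% in cortex (77.6 to 83.7%) and 92.8% in olfactory bulb (90.8 to 94.5%). The shorter exon was thus the minor form in each brain tissue of this design. The lncRNA design gave 87.7% in cerebellum from 536 fragments. In its whole brain library the shorter form held 0.11 of 49 fragments. Cortex and olfactory bulb had 1 fragment each there and cannot rank the forms. These shares are estimates by the transcript quantifier, and the intervals take them as counts.

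Each of the 5 alpha subunits of the set has a coding exon of the same length, 221 bases, at this place in the gene. Over the whole exon 152 (Gabra5) to 164 (Gabra2) of the bases were identical to Gabra6. The first 30 bases of the exon, the ones the shorter Gabra6 form leaves out, are shown for the 5 genes with capitals where a base differs from Gabra6.

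Gabra6: gagtatacaatggatgttttcttccgccag
Gabra2: gagtatacaatAgatgttttcttTcgGcaA
Gabra3: gaAtatacTatTgatgtAttTttTAgAcag
Gabra4: gaAtaCacTatggatgtGttcttcAgAcag
Gabra5: gaAtatacCatCgatgtGttTttccgGcaA

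Between 22 (Gabra3) and 26 (Gabra2) of these 30 bases matched Gabra6. Gabra2, the gene with the closest match, was the other member with 2 starts of this exon in the assembly, at chr5:71014416-71014636 on the minus strand, but its shorter form leaves out 61 bases and shifts the reading frame. The Gabra2 exon is shown with those 61 bases, chr5:71014576-71014636, in capitals.

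Gabra2 exon: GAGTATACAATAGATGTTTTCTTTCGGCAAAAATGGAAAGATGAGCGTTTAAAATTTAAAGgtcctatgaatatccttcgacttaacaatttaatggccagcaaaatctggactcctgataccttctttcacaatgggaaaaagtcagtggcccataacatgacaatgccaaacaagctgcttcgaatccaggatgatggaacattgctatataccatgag

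The longer Gabra2 exon took 89.2% of the fragments of both forms in cerebellum (87.5 to 90.7%), 84.0% in cortex (82.6 to 85.2%), 78.0% in whole brain (76.8 to 79.2%) and 71.1% in olfactory bulb (69.7 to 72.5%), splice junction design. The intervals of the 4 tissues did not overlap. They take estimates by the transcript quantifier as counts. The lncRNA design held at most 23 fragments on these forms in a library and could not rank the tissues. There the longer form did not lead in every library. In whole brain its transcripts held 7.48 and 0.10 fragments, against 8.01 and 7.42 on transcripts of the shorter form. In olfactory bulb they held 7.02 and 0.03 against 10.2. In cortex the longer form led, with 9.09 and 7.90 against 0.008.

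Upstream of Gabra6, the RefSeq start lies 8 bases from the nearest assembled start. The 250 bases before it, chr11:42321073-42321322 on the minus strand (GRCm38.p6), were searched on both strands for the TATA box TATAAA, the nuclear factor I element TTGGCA, the E box CANNTG, the cAMP response element core TGACGT and the GC box GGGCGG. They hold 1 TTGGCA match, read here as its reverse complement and in capitals, as do 12.3% of the 32851 RefSeq promoter windows of this length. The other 4 motifs have no match there. A match is a run of letters and no binding was measured here.

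Gabra6 upstream: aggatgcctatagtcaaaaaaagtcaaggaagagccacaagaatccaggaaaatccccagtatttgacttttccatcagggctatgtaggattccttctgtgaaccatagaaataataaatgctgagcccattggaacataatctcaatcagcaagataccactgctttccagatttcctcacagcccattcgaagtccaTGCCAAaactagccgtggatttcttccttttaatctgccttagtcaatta

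Gabra5, an alpha subunit of largely extrasynaptic receptors, was highest in olfactory bulb in both designs. Its splice junction levels were 128 CPM in whole brain, 4.26 in cerebellum, 117 in cortex and 376 in olfactory bulb, and its lncRNA-design levels were 3.29, 0.121, 2.00 and 6.95. The olfactory bulb stood 2.94-fold over whole brain and 88.2-fold over cerebellum in the splice junction design. With lncRNA probes it stood 2.11-fold over whole brain and, with only 2 cerebellar fragments, at least 38.2-fold over cerebellum. Whole brain and cortex followed in that order in both designs, with overlapping counting intervals in the lncRNA design. Outside the brain 4 fragments in kidney were the only ones, in the splice junction design.

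Gabra5 spans chr7:57407672-57510059, minus strand, 20483 bases from Gabrg3. Its 5 transcripts used 3 groups of first exons. The innermost, at chr7:57509179-57509236, took 61.3% of fragments in whole brain, 78.8% in cerebellum (70.4 to 85.1%), 66.8% in cortex and 63.6% in olfactory bulb, splice junction design.

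Gabra4, an alpha subunit found with delta in the forebrain, was highest in cortex. Its splice junction levels were 259 in whole brain, 57.2 in cerebellum, 299 in cortex and 154 in olfactory bulb, and its lncRNA-design levels were 5.70, 1.03, 6.40 and 2.71. The order of the 4 tissues was the same in both designs, and cortex stood 5.23-fold and 6.21-fold over cerebellum. Only cortex and whole brain had overlapping counting intervals, in the lncRNA design.

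Gabra3, an alpha subunit of synaptic receptors, was even across the brain apart from cerebellum. Its splice junction levels were 62.5 in whole brain, 5.21 in cerebellum, 62.0 in cortex and 59.7 in olfactory bulb, and its lncRNA-design levels were 5.54, 0.303, 4.28 and 3.62. Whole brain, cortex and olfactory bulb did not differ beyond counting error with their neighbours in this order in either design. Cerebellum was 12.0-fold below whole brain in the splice junction design and 18.3-fold below it in the lncRNA design.

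Gabra2, another synaptic alpha subunit, had the smallest spread of the 5 alpha members. Its splice junction levels were 150.3 in whole brain, 62.0 in cerebellum, 130.2 in cortex and 191 in olfactory bulb, and its lncRNA-design levels were 2.33, 0.546, 1.29 and 1.70. The highest tissue stood 3.07-fold over cerebellum in the splice junction design and 4.26-fold in the lncRNA design. The top tissue was olfactory bulb in the first and whole brain in the second, where all neighbours overlapped.

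Gabrb2, the beta subunit of the set, was the most even member. Its splice junction levels were 272 in whole brain, 373 in cerebellum, 359 in cortex and 258 in olfactory bulb, and its lncRNA-design levels were 22.0, 26.6, 22.2 and 13.1. The order was the same in both designs, from cerebellum to olfactory bulb, over a range of 1.45-fold and 2.04-fold. With lncRNA probes cerebellum overlapped cortex, and cortex overlapped whole brain, within counting error.

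Gabrd, the delta subunit, was highest in cerebellum. Its splice junction levels were 409 in whole brain, 910 in cerebellum, 415 in cortex and 181 in olfactory bulb, and its lncRNA-design levels were 4.83, 8.97, 3.29 and 1.46. Cerebellum stood 2.19-fold over the next tissue in the first and 1.86-fold in the second, and olfactory bulb was lowest in both. Whole brain and cortex overlapped in both designs.

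**Figure D2:**
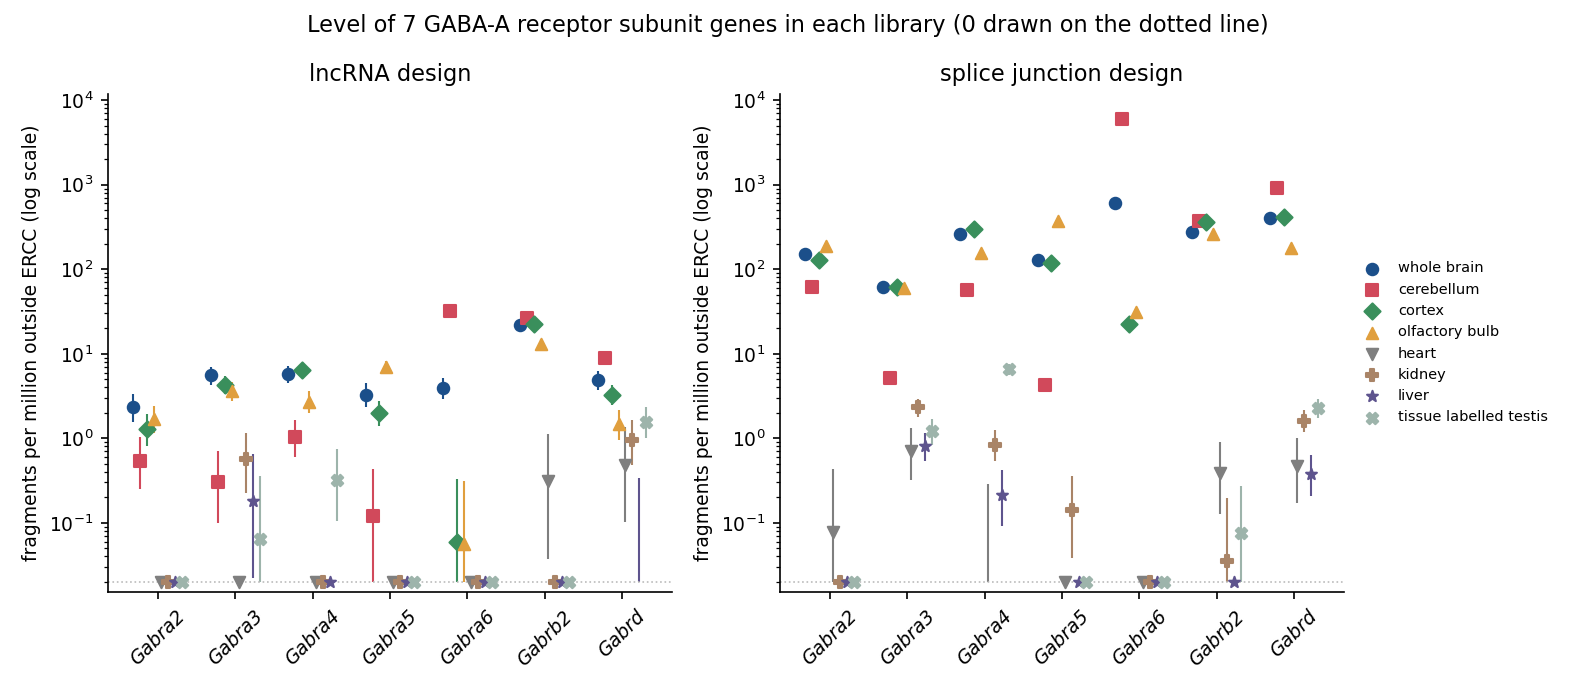
Level of each member in CPM (log axis) in the 16 libraries, 1 point per library with exact Poisson 95% intervals of counting error, and libraries at 0 on the dotted line. Gabra6 spans 22.2 to 5915 CPM across brain tissues in the splice junction design, and Gabrb2 only 258 to 373.

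The subunit mix was compared per length, as each gene's share of the summed FPKM (CPM per kilobase of transcript) of the 7 members. A mix in captured libraries also carries how well each gene was reached by the probes, so shares are compared between tissues of one design. In cerebellum Gabra6 led in both designs, with 59.3% of the mix in the lncRNA design against 80.4% with splice junction probes, and Gabrd was next with 19.4% and 15.7%. Of the 5 alpha members alone, Gabra6 made up 93.9% and 97.7% there.

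In olfactory bulb Gabra5 led in both designs, with 33.5% of the lncRNA-design mix and 32.6% of the splice junction mix. Gabra2 made up 15.4% and 17.7%, its highest shares among the brain tissues. In cortex Gabra4 had the highest share of the alpha members, 35.9% with lncRNA probes and 51.0% with splice junction probes. The latter share rests on a transcript joined to the neighbouring gene Cox7b2, described with the nonbrain fragments, which held 96.4% of its Gabra4 fragments. Without transcripts that overlap another gene, an alternative added after seeing the data, Gabra4 was at 10.8 CPM in the splice junction design. That was 2.24% of the cortical alpha members, the lowest of the 5, while Gabra2 led with 42.8%. The joined transcript carries Gabra4 exons, so leaving it out also drops fragments of Gabra4 itself. The fall followed from that choice, and the rank of Gabra4 cannot be read from this alternative. The cortical gene at the head of all 7 was Gabrb2 in the lncRNA design (32.6%) and Gabrd in the splice junction design (40.5%). In whole brain Gabrb2 led the lncRNA-design mix with 22.4% and Gabra6 the splice junction mix with 32.5%. Per length, the alpha members were nearly level in whole brain in the lncRNA design, from 17.96% (Gabra5) to 21.02% (Gabra6) of the 5. They ran from 3.39% (Gabra3) to 49.4% (Gabra6) in the splice junction design. Not divided by length, they were less level in that lncRNA-design library. There they ran from 4.89% (Gabra2, 29 fragments) to 12.0% (Gabra4, 71 fragments) of the fragments of the 7 members.

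The leading gene by FPKM stayed the leading one when fragments were not divided by length in 7 of the 8 brain libraries. The exception was the lncRNA-design library of olfactory bulb, where Gabrb2 led with 44.2% of fragments.

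**Figure D3:**
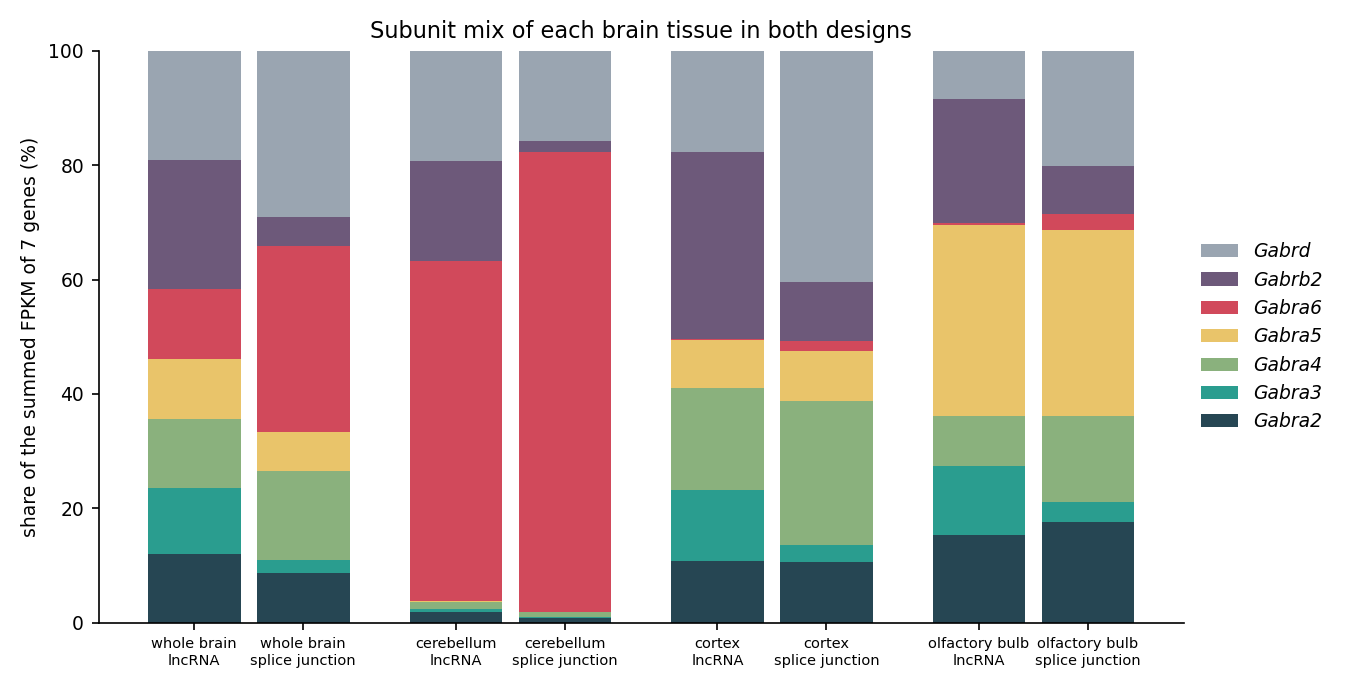
Share of each of the 7 members in their summed FPKM (vertical axis, percent) in the 8 brain libraries, with both designs of a tissue side by side. Gabra6 fills 59.3% and 80.4% of the cerebellar bars, Gabra5 about equal parts of both olfactory bulb bars, 33.5% and 32.6%, and the largest cortex share is that of Gabrb2 with lncRNA probes and Gabrd with splice junction probes.

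The question of the comparison between brain and nonbrain tissues was which transcripts are enriched in the brain. Log2(deposited value + 1) was averaged over both designs for each tissue, and the 4 brain tissues were compared with the 4 nonbrain tissues with limma over the 30789 units (GENCODE genes, and assembled loci outside them) whose mean value reached 10. All 7 members were higher in brain at an adjusted p under 0.05, beside 22.8% of all units higher and 8.61% lower, or 31.4% in either direction. With quantile normalization the background was 17.5% higher and 16.5% lower. Of 14841 protein-coding genes, 20.2% were higher. The median difference of the members was 7.15 on the log2 scale, or 6.41 with Gabra6 at the bound given by 3 fragments, beside a median over all units of 0.35. With CPM values the latter became -0.04 and with quantile normalization -0.19.

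The largest difference of the members was that of Gabrb2, 9.21 (SE 0.69, adjusted p = 2.62e-05). The brain tissues averaged 10.26 ± 0.34 (SD, n = 4 tissues) and the nonbrain tissues 1.04 ± 1.51. Gabra2 followed with 7.45 (SE 0.46, adjusted p = 8.96e-06), Gabra5 with 7.15 (SE 1.09, adjusted p = 0.00119) and Gabra4 with 6.41 (SE 0.95, adjusted p = 0.00103). Gabrd differed by 5.46 (SE 0.75, adjusted p = 0.000676). The fitted difference of Gabra6, 7.89 (SE 1.61, adjusted p = 0.00539), depends on the pseudocount because every nonbrain library was at 0. Its brain tissues also had the widest SD, 3.95. The nonbrain libraries held few fragments of Gabra2, Gabra5 and Gabrb2, namely 1, 4 and 8 in the splice junction design and 0, 0 and 2 in the other. Over 18 alternatives their differences ranged from 3.54 to 9.93, 3.46 to 8.99 and 5.63 to 10.37. The order of the differences is therefore not settled.

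Gabra3 had the smallest difference, 3.87 (SE 0.92, adjusted p = 0.0111), and was the only member whose tissue groups overlapped, with cerebellum below kidney on the averaged log2 scale. In CPM its groups overlapped in the lncRNA design, at 0.303 in cerebellum (5 fragments) against 0.566 in kidney (7 fragments). They did not overlap in the splice junction design, at 5.21 in cerebellum against 2.32 in kidney. For the other 6 members each brain tissue lay above each nonbrain tissue, as it did for 22.9% of all units and 20.9% of protein-coding genes. Within the lncRNA design the Gabrd levels also overlapped, at 1.46 CPM in olfactory bulb against 1.56 in the tissue labelled testis. Of these fragments, 71.4% and 100% lay on a transcript joined to 5830444B04Rik, described with the nonbrain fragments. Without it the 2 levels were 0.416 and 0 CPM. With lncRNA-design libraries alone Gabra6 and Gabrd no longer passed, with differences of 4.64 (adjusted p = 0.102) and 3.21 (adjusted p = 0.0781). The fit of this design alone was not repeated without the joined transcript. All 7 passed with splice junction libraries alone and without the tissue labelled testis.

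The rest of the receptor family moved largely with the set. Of 12 further subunits 10 could be tested, and 7 were higher in brain, beside 22.8% of all units. Among the 7 were Gabrb1, Gabrg1, Gabrg3 and Gabrq. Gabrp, the pi subunit, was lower in brain by 5.83 (SE 1.37, adjusted p = 0.0107), and a fit without the tissue labelled testis, an alternative added after seeing the data, gave -4.24 (SE 0.58, adjusted p = 0.00121). Leaving that tissue out does not remove fragments it may have shared with the other nonbrain libraries of its hybridization pool, which was not tested. Gabrp stood at 1536 CPM in the tissue labelled testis, 17.2 to 23.6 in the other nonbrain libraries and at most 0.338 in brain, splice junction design. Gabre and Gabrr2 did not pass. The median over the 10 was 5.80 on the log2 scale.

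Of 9 genes of GABA synthesis, transport and breakdown, 5 were higher in brain and 4 did not pass, beside 22.8% of all units higher. Among the 5 were Gad1 and Gad2, which make GABA, Slc32a1, which loads it into vesicles, and Slc6a11, which takes it up. In the lncRNA design the 9 genes summed to 644 CPM in liver and 553 in kidney, against at most 530 in a brain library. In the splice junction design olfactory bulb had the highest sum, 3042 CPM, against 1396 in liver. Of 15 genes of receptor assembly, anchoring and trafficking, 7 were higher, among them Lhfpl4 and Shisa7, which bind the receptor, and Nlgn2 of the inhibitory synapse. The scaffold gene Gphn differed by 0.88 (SE 0.32) with an adjusted p of 0.0655. The 4 chloride transporter and GABA-B receptor genes, Slc12a5, Slc12a2, Gabbr1 and Gabbr2, were all higher.

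Nonbrain fragments of the members were few and came mostly from 3 genes. In the splice junction design Gabra2, Gabra5 and Gabrb2 had 1, 4 and 8 fragments in the 4 nonbrain libraries together. Gabra3 had 9 in heart, 66 in kidney, 30 in liver and 32 in the tissue labelled testis, or 0.701, 2.32, 0.804 and 1.21 CPM. A single transcript held 99.98% of the Gabra3 fragments of this design over all 8 libraries. Kidney was also the highest nonbrain library for Gabra3 in the lncRNA design, with 7 fragments, 2 in liver, 1 in the tissue labelled testis and none in heart. The 8 neuronal markers were at 1.12 CPM in kidney, with Snap25, Stmn2 and Nefl at 0, and the 8 markers of peripheral neurons, Schwann and chromaffin cells at 0.527. Their part in the Gabra3 level was not tested.

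Gabra4 reached 173 fragments, 6.56 CPM, in the tissue labelled testis in the splice junction design, beside 24 in kidney, 8 in liver and none in heart. Of these, 168, 24 and 8 fragments, in that order, lay on a transcript of 10 exons that joins Gabra4 exons to the last exon of the neighbouring gene Cox7b2 on the same strand, at chr5:71442824-71443269. The same transcript took 96.1 to 97.3% of the Gabra4 fragments of the brain libraries in this design. None of the lncRNA-design fragments lay on it, and there the annotated Gabra4 last exon, chr5:71569734-71572223, took all of them. Cox7b2 itself had at most 2 fragments in any library. Without that transcript 4.62 nonbrain fragments remained.

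Gabrd had 6 fragments in heart, 45.8 in kidney, 14 in liver and 60.5 in the tissue labelled testis in the splice junction design. In kidney 90.9% of them (79.7 to 96.6%) and in the tissue labelled testis 100% lay on a transcript that overlaps exons of the noncoding gene 5830444B04Rik, starts 23592 bases upstream of the annotated Gabrd start, and runs on into Gabrd exons. In whole brain, cerebellum and cortex that transcript held none of the Gabrd fragments, and in olfactory bulb 0.686%. In the lncRNA design all of the nonbrain Gabrd fragments, 3.09 in heart, 11.7 in kidney and 24.3 in the tissue labelled testis, were on it, as were 71.4% of the 25.8 in olfactory bulb and 22.0% of the 60.2 in whole brain. 5830444B04Rik itself had 85.9 to 3458 fragments in each lncRNA-design library. Without the joined transcript, the difference between brain and nonbrain was 7.86 for Gabrd and 5.46 for Gabra4, both past the threshold, an alternative chosen after seeing the data.

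**Figure D4:**
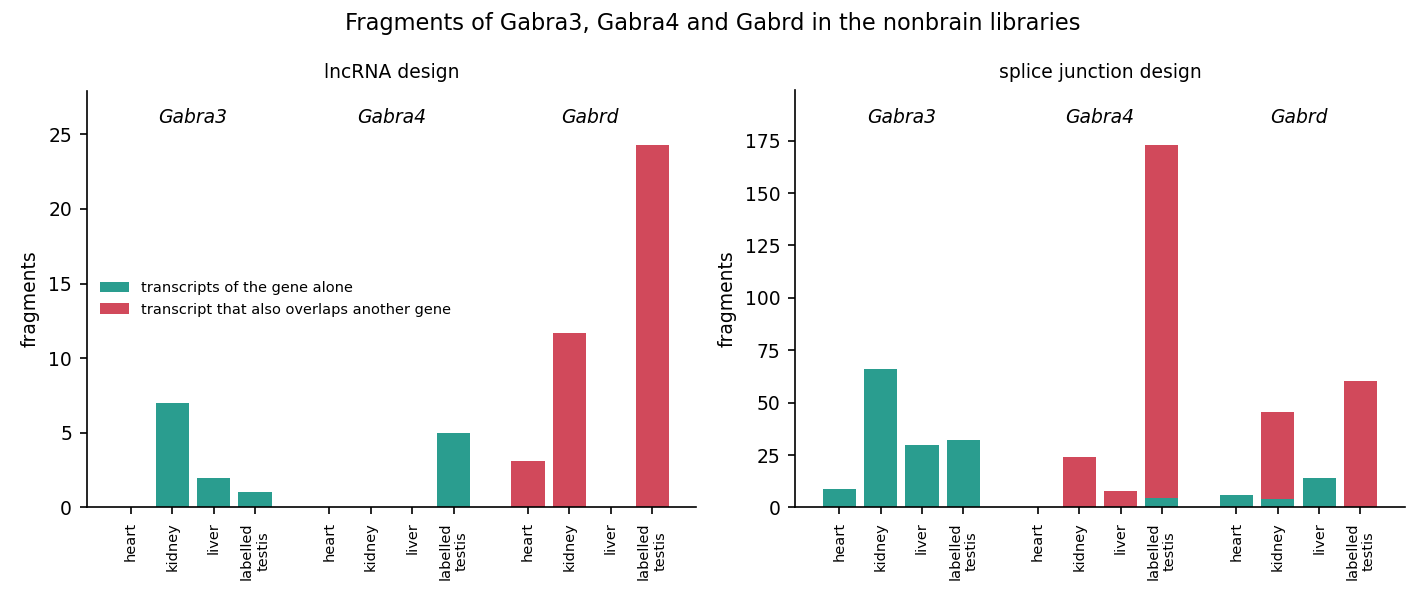
Fragments of Gabra3, Gabra4 and Gabrd in the 4 nonbrain libraries of each design, split into transcripts of the gene alone and a transcript that also overlaps another gene. The 168 Gabra4 and 60.5 Gabrd fragments of the tissue labelled testis in the splice junction design lie on joined transcripts, and the Gabra3 fragments do not.

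The nonbrain libraries were hybridized together, and several genes high in the tissue labelled testis had a low level in the others. Gabrp stood in heart, kidney and liver at 1.26%, 1.12% and 1.53% of its level in the tissue labelled testis, splice junction design. Of the keratinocyte markers, Krt5 and Krt14 stood there at 1.25 to 1.81% of theirs, Trp63 at 1.44 to 3.01% and Krt10 at 2.87 to 16.6%. Lor, at 0.417 CPM in the tissue labelled testis, reached 16.8% in kidney. Gabra4 stood at 12.9% in kidney and 3.27% in liver, and Gabra3 was higher in kidney than in the tissue labelled testis. The part of shared fragments within the pool in the nonbrain values was not tested.

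Transcript forms differed between brain tissues in Gabrb2 and Gabrd as well. Gabrb2 lies on chr11:42419757-42629028, plus strand, 98.7 kb from Gabra6. Its 11-exon transcript includes a coding cassette exon of 114 bases at chr11:42602115-42602228, a whole number of codons, which is annotated as an alternative exon and is shown here.

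Gabrb2 cassette exon: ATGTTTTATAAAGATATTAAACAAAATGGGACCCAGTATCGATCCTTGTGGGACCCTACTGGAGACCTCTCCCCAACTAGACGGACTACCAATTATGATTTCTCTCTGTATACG

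In the splice junction design the exon was included in 29.3% of the fragments of both forms in cortex (28.3 to 30.2%), 24.9% in cerebellum (24.0 to 25.8%), 20.47% in whole brain (19.6 to 21.3%) and 17.3% in olfactory bulb (16.3 to 18.3%). In the lncRNA design it was included in 30.7% of 274 fragments in whole brain and in 0% in the other brain libraries, so the designs did not give the same order. The same transcript carries the 226-base exon at chr11:42421201-42421426, which moved with it in the splice junction design. A short Gabrb2 transcript ending in an intron took 13.9% in cerebellum, 10.0% in cortex, 8.68% in olfactory bulb and 2.62% in whole brain. The assembled last exon ran 3514 bases past the annotated end.

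Gabrd, on chr4:155384980-155398112, minus strand, used 4 groups of first exons. The annotated one took 60.2% of splice junction fragments in cerebellum, 54.9% in whole brain, 52.8% in cortex and 53.8% in olfactory bulb. An inner first exon of 56 bases at chr4:155397424-155397479, whose splice site is not in GENCODE M21, took 35.2%, 41.7%, 46.1% and 44.1%. Its share was thus lowest in cerebellum, the tissue with the highest Gabrd level, and the cerebellar interval (34.6 to 35.8%) did not overlap the others. These intervals too take estimates by the transcript quantifier as counts. The lncRNA design gave it 24.1% of 56 fragments in cortex and 0% elsewhere.

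**Figure D5:**
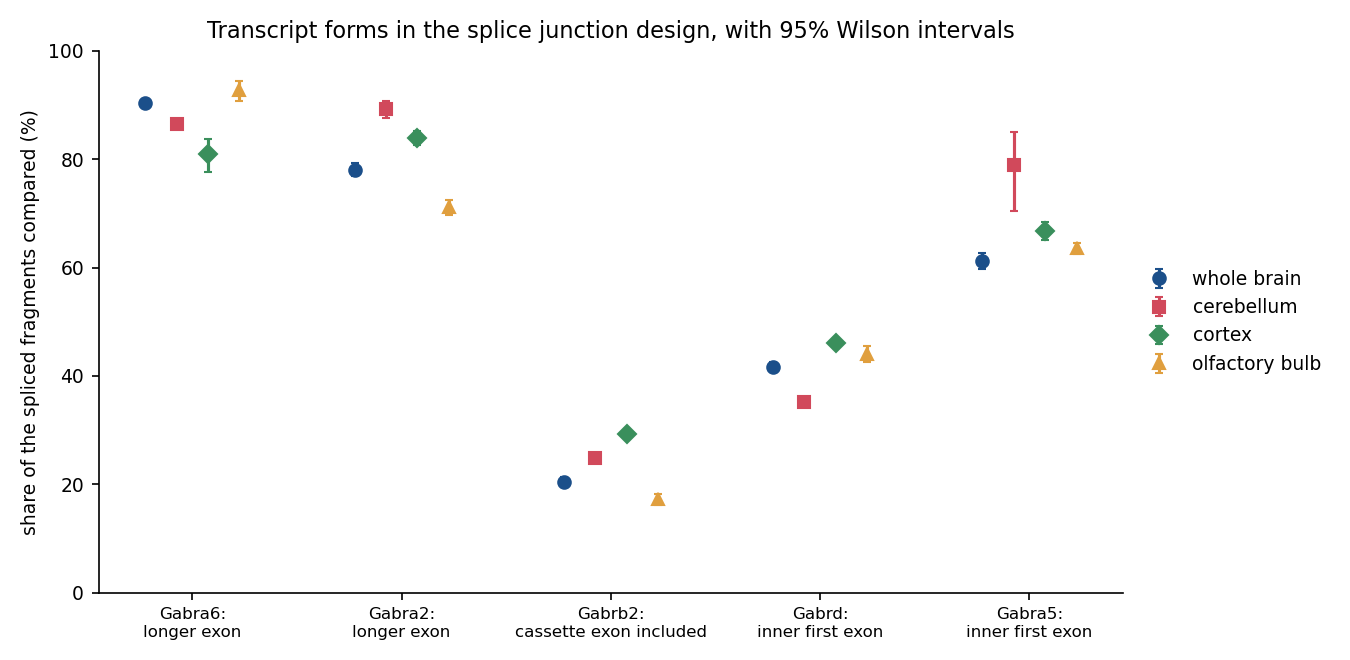
Share of 5 transcript forms (vertical axis, percent of the spliced fragments compared) in the 4 brain tissues of the splice junction design, with 95% Wilson intervals. The longer Gabra2 exon ranges from 71.1% in olfactory bulb to 89.2% in cerebellum and the Gabrb2 cassette exon from 17.3% in olfactory bulb to 29.3% in cortex.

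Inside an intron of Gabra2, at chr5:71044657-71045492, the assembly held a same-strand single-exon model of 836 bases that belongs to no GENCODE gene. In the lncRNA design it had 23 fragments in whole brain, 51 in cerebellum, 305 in cortex and 741 in olfactory bulb, against 9 to 30 for Gabra2 itself, and none in the nonbrain libraries. The splice junction design held 3 fragments in all. Strand and place alone do not tell whether it is a transcript of its own or unspliced Gabra2 RNA, which was not tested.

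The 2 designs reached the members very unequally. All 7 were lower in the lncRNA design, by 1.55 (Gabrb2) to 3.56 (Gabra4) on the log2 scale of the deposited values with adjusted p of 0.00931 or less (limma, tissue as a factor), beside 34.4% of all units and 65.7% of protein-coding genes lower and 94.2% of all units called in either direction. With quantile normalization the split over all units changed from 59.8% higher and 34.4% lower to 45% higher and 41.6% lower. In CPM, the splice junction level in brain was in median 15.1-fold (Gabrb2) to 168-fold (Gabra6) that of the lncRNA design. The median over 10628 protein-coding genes was 5.11-fold, and 27.5% of them were below 1. Gabrb1, which lies on chromosome 5 head to head with Gabra4 and overlaps it by 196 bases on the opposite strand, went the other way, at 0.609-fold.

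On the log2(value + 1) scale the difference between brain and nonbrain passed the test as smaller in the lncRNA design for 5 of the 7 members, beside 4.31% of all units smaller and 14.4% larger in it, 18.7% together. Of protein-coding genes 5.21% were smaller and 7.98% larger. These were Gabrd by -4.50 (SE 0.80, adjusted p = 0.0032), Gabrb2 by -2.31, Gabra2 by -4.94, Gabra5 by -3.69 and Gabra6 by -6.49. Gabra6 was at 0 in all 8 nonbrain libraries, so its value is the difference of its brain levels between designs and tests nothing about the brain to nonbrain contrast. Gabra2 and Gabra5 each had a single nonbrain library above 0, with 1 and 4 fragments, and their values likewise rest on the brain levels and the pseudocount. This holds largely for Gabrb2 too, with 2 nonbrain fragments under lncRNA probes and 8 under splice junction probes. The nonbrain Gabrd fragments of the lncRNA design all lay on the transcript joined to 5830444B04Rik, and the Gabrd value was not tested without it. For the 5 the nonbrain tissues themselves differed between designs by 0 (Gabra6) to -0.99 (Gabrd) on this scale. Gabra4 (-1.69, SE 0.80, adjusted p = 0.192) and Gabra3 (0.16, SE 0.48, adjusted p = 0.863) did not pass. Gabra3 turned to -1.003 (adjusted p = 0.0165) with a pseudocount of 10, and Gabra4 passed at -3.00 (adjusted p = 0.00167).

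Among 7334 protein-coding genes outside the family with 200 or more fragments in each design, those with the most similar tissue profile were found by a distance between 0 (same share of the gene's level in each of the 8 tissues) and 1 (no tissue in common), averaged over both designs. Gabra6 was nearest to Cbln3 (0.0142), Sycp1 (0.0277) and Cnpy1 (0.0680). Gabra5 was nearest to Epha5 (0.0520), Cpne4 (0.0856) and Kcnb2 (0.0874), and Gabrb2 to Kcna2 (0.0348), Rims4 (0.0376) and Pclo (0.0421). Gabra4 was nearest to Lrfn5 (0.0529), Rab6b and Snph, Gabra2 to Slc7a11 (0.0496), Scg2 and Bcan, and Gabra3 to Csrnp3 (0.0621), Nrsn1 and Crtac1. Gabrd had the least similar nearest genes, Tshb (0.0747), Atp2b3 and Mpp3. Heart, kidney and the tissue labelled testis made up 2.22%, 4.39% and 7.24% of its lncRNA-design profile. Those fragments all lay on the transcript joined to 5830444B04Rik, and the distances were not computed without it. Of the pairs of members, Gabra2 and Gabra3 were closest (0.135) and Gabra5 and Gabra6 farthest apart (0.886). Gabra6 and Gabrb2, neighbours on chromosome 11, lay 0.589 apart.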

How the data were processed

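CaptureSeq libraries of 8 tissues were compared in 2 probe designs, with stranded libraries and ERCC spike-in RNAs. Per the study's methods and the submitters' processing notes, reads were aligned to GRCm38 with TopHat2, assembled per library with Cufflinks 2.2.1, merged into 1 assembly and quantified with Cuffnorm 2.2.1. The deposited values are a normalized abundance signal per transcript that the authors scaled by 1 factor per library, with fragments shared between transcripts by estimation. Every low gene sum was a whole multiple of 1 step per library (tolerance 0.1 step), so fragments were recovered by division and given as CPM, per 1000000 fragments outside ERCC.

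Transcripts were assigned to the GENCODE M21 gene with the largest same-strand exonic overlap and summed per gene. Levels per length are FPKM computed here from recovered fragments. Groups came from the labels, with tissue as the unit. The linear model of limma 3.58.1 (R 4.3.3, trend, Benjamini-Hochberg adjustment, threshold 0.05) was fitted to log2(value + 1) over units with a mean of at least 10, and was tested on simulated data. A log2 difference on this scale understates the change of low genes. Count models were not used, since the values are normalized estimates. Exact Poisson and Wilson intervals (95%) and a floor of 3 fragments cover counting error only, and PCR reads without molecular identifiers are not independent molecules.

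Python 3.11.15, NumPy 2.4.6, pandas 2.3.3, SciPy 1.17.1 and matplotlib 3.10.9 were used. Exon sequences came from GENCODE M21 transcripts and promoters from RefSeq (GRCm38.p6). The genes named are the 7 members, genes of fixed pathway lists that neighbour a member, and for each member the 3 nearest profiles. Named genes of the pathway and marker lists beyond this rule were chosen after their values were seen. Some genes, and a further form of the subunit mix that needs one, are not reported here. The members and lists were chosen with earlier results of these data known. Alternatives were another pseudocount, filter, scaling, assignment of transcripts and length, each design alone, and leaving out each tissue.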

Additional observations from a re-analysis of the deposited data

Results flagged for a closer look

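In 28 groups of 4 libraries (a member, a design, brain or nonbrain), 8 held a library whose gap to the next passed Dixon's 95% critical value. Chance meets this criterion in about 1 of 20 groups of normally distributed values, a rate that does not hold for groups with libraries at 0. Groups with all 4 libraries at 0 have no gap and could not pass. Gabra6 stood apart in cerebellum at 32.5 CPM with lncRNA probes and 5915 with splice junction probes, and Gabra3 was lowest in cerebellum at 5.21 in the latter. Gabra4 stood apart in the tissue labelled testis at 0.321 with lncRNA probes (5 fragments) and 6.56 with splice junction probes, the latter mostly on the transcript joined to Cox7b2. The other 3, like the lncRNA-design value of Gabra4, rest on few fragments, namely Gabra2 in heart at 0.0779 (1 fragment), Gabra5 in kidney at 0.141 (4 fragments) and Gabrb2 in heart at 0.309 (2 fragments). In each of these groups, and in the lncRNA-design group of Gabra4, the remaining libraries were at 0, so the criterion was met by construction.

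The difference between brain and nonbrain tissues was itself tested with limma on the log2(value + 1) scale. It was smaller in the lncRNA design for Gabrd (-4.50) and Gabrb2 (-2.31). Gabrb2 had only 2 nonbrain fragments with lncRNA probes and 8 with splice junction probes, so its value rests largely on brain levels and the pseudocount. With lncRNA probes every nonbrain Gabrd fragment lay on the transcript joined to 5830444B04Rik. The Gabrd value was not tested without that transcript. Gabra2 (-4.94), Gabra5 (-3.69) and Gabra6 (-6.49) passed the same test, but Gabra6 was at 0 in all 8 nonbrain libraries and the others in 7 of 8. Their values give the difference of brain levels between designs, and for Gabra6 the test says nothing of the contrast with nonbrain tissues.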

How the results depend on the processing

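All 7 members were higher in brain under each alternative tried except the lncRNA design alone, where 5 passed and Gabra6 (4.64, adjusted p = 0.102) and Gabrd (3.21, adjusted p = 0.0781) did not (limma). The nonbrain Gabrd fragments of that design all lay on the transcript joined to 5830444B04Rik, and its fit was not repeated without that transcript. The comparison of the designs kept its direction and calls in each of its alternatives. For the difference of the brain effect between designs, Gabra3, which did not pass, turned to -1.003 with a pseudocount of 10, to -0.83 with CPM, and ranged from -0.24 (without heart) to 0.47 (without kidney) when 1 tissue was left out. Gabra4 passed at -3.00 with a pseudocount of 10 and at -2.64 with CPM.

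Shares of the leading gene of the mix moved with the measure of length. With no length and per annotated splice junction, the lncRNA design gave Gabrb2 46.2% and 44.1% in whole brain and 56.2% and 54.3% in cortex, Gabra6 46.4% and 49.7% in cerebellum, and Gabra5 23.5% and 23.1% in olfactory bulb. The splice junction design gave Gabra6 32.1% and 34.8% in whole brain and 80.7% and 81.7% in cerebellum, Gabrd 29.6% and 33.2% in cortex, and Gabra5 30.1% and 29.5% in olfactory bulb. Without transcripts that overlap another gene, the splice junction design gave Gabra6 38.4% of the mix and 64.2% of the alpha members in whole brain, 81.0% and 98.7% in cerebellum, Gabra5 38.2% and 57.4% in olfactory bulb, and Gabrd 53.6% of the mix in cortex, where the Gabra4 share of the alpha members was 2.24% and Gabra2 led. The low Gabra4 share followed from leaving out a transcript that carries Gabra4 exons, so it does not rank Gabra4. In the lncRNA design the leading shares moved by less than their counting intervals.

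In the same alternative, added after seeing the data, nonbrain fragments came to 0 for Gabrd in the lncRNA design and to 4.62 for Gabra4 and 24.1 for Gabrd in the splice junction design. No paired analysis was possible because replicate numbers in the labels do not pair brain with nonbrain tissues. With 1 library per tissue and design, shares of transcript forms have no replicate, and levels of a few fragments cannot rank tissues.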
